A study of Mus musculus with 6 samples.

Results

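Transcripts of 10 genes that encode carriers of glucose, amino acids and lactate in the plasma membrane were measured in regulatory T (Treg) cells, the CD4 T cells that depend on the transcription factor Foxp3 and restrain immune responses. The genes were chosen by name: Slc2a1, Slc2a3, Slc3a2, Slc7a5, Slc1a5, Slc7a1, Slc38a1, Slc38a2, Slc16a1 and Slc16a3. They are 10 of the 23992 gene symbols in the table, and all 10 were among the 12720 genes that passed the filter on low counts. For Slc16a3, Slc38a1 and Slc3a2, which have several transcript rows, the row with the most reads was kept. Bulk RNA was sequenced from 3 KO and 3 WT samples. KO cells came from male Foxp3YFP-Cre/YCrlf2fl/fl mice, in which a Cre recombinase driven by Foxp3 deletes floxed Crlf2, and WT cells from male Foxp3YFP-Cre/Y mice with the same Cre allele alone. Mice of both groups were CD45.2. By the labels, live cells positive for CD4 and YFP were sorted from pooled spleen and lymph nodes, whereas the name of the deposited count table says lung, so the tissue is not settled. Crlf2 encodes the receptor chain specific for the cytokine TSLP. The age of the mice, and whether a sample held 1 animal or several, are not in the labels.

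T cells raise their uptake of glucose and amino acids when they are activated, in part through the transcription factors Myc and HIF-1 and the kinase complex mTORC1. Glucose enters through the facilitative carriers GLUT1 (Slc2a1) and GLUT3 (Slc2a3). Large neutral amino acids such as leucine enter through LAT1 (Slc7a5), which reaches the membrane as a heterodimer with the heavy chain CD98 (Slc3a2). Glutamine and other small neutral amino acids are carried by ASCT2 (Slc1a5), SNAT1 (Slc38a1) and SNAT2 (Slc38a2), and arginine and lysine by CAT1 (Slc7a1). Lactate moves with a proton through MCT1 (Slc16a1) and MCT4 (Slc16a3), both of which need the chaperone basigin (Bsg). MCT4 is a known target of HIF-1 in cells that export lactate, and lactate uptake through MCT1 is known to sustain Treg cells in mouse tumours.

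Titles and genotype tags give the groups, while the strain in each sample's description is that of the other group. Crlf2 followed the titles, with 9.06, 6.72 and 3.55 CPM (counts scaled to library size with TMM factors) in KO replicates 1 to 3, against 92.8, 146 and 105 CPM for WT replicates 1 to 3. The log2 fold change was -4.16, and edgeR gave an adjusted p of 0.0047. Foxp3 averaged 434 ± 52.1 CPM over KO libraries and 370 ± 148 CPM over WT libraries (SD, n = 3), with the lowest value, 200.1 CPM, in WT replicate 3. That library stood apart. Erythroid markers summed to 14.5% of its reads, against 0.192% to 0.284% in KO libraries and 0.171% and 0.686% in the other WT libraries. Hbb-bt and Hbb-b2 had equal counts in every library (226060 each in WT replicate 3). Hbb-bs and Hbb-b1, and also Hba-a1 and Hba-a2, were nearly equal, so the erythroid share may count the same reads more than once. Macrophage and monocyte markers took 0.705% of WT replicate 3 reads, against 0.256% to 0.278% for KO and 0.0369% and 0.0768% for other WT libraries. It was lowest in 14 pan-T cell genes (0.478% of reads, against 0.865% to 0.963% for KO and 0.766% and 0.835% for the other WT libraries) and in 5 genes of Treg identity (0.103%, against 0.237% to 0.253% for KO and 0.226% and 0.238% for the other WT libraries). Lung epithelial markers, led by Scgb1a1, took 0.247% to 2.02% of KO reads and 1.75% to 7.87% of WT reads, highest in WT replicate 1. Depth ran from 9649601 to 18352401 reads in KO libraries and from 1439736 (WT replicate 2) to 12180569 in WT libraries, so that 3 reads equal 0.157 to 0.292 CPM in KO and up to 2.05 CPM in WT replicate 2. In bulk RNA, fewer cells of a type and less RNA per cell cannot be told apart.

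Per length of transcript, the carriers of amino acids held both the highest and nearly the lowest levels. Slc1a5 was highest, at 239 to 248 CPM per kilobase in KO libraries against 164 to 208 CPM per kilobase in WT libraries. Its mean over the 6 libraries lay above 96.8% of tested genes. Slc3a2 followed with 127 to 143 CPM per kilobase in KO libraries, against 101 to 124 in WT libraries. Slc38a2 had 32.3 to 37.1 CPM per kilobase in KO libraries, against 36.7 to 47.5 in WT libraries. These 3 genes kept their order in all 6 libraries, and their ranges did not overlap. Next came Slc2a1, averaging 25.8 CPM per kilobase in KO libraries and 21.5 in WT libraries, and Slc2a3, averaging 21.9 in KO libraries and 16.6 in WT libraries. Slc2a1 exceeded Slc2a3 in 5 of 6 libraries, and their ranges overlapped. Slc16a3, Slc38a1 and Slc7a1 averaged 15.1, 12.8 and 10.2 CPM per kilobase over the 6 libraries, near the middle of all tested genes. Slc16a3 exceeded Slc38a1 in only 2 of 6 libraries, so these neighbours were not separated. Slc7a5, averaging 3.82 CPM per kilobase in KO libraries and 4.60 in WT libraries, and Slc16a1, averaging 2.75 in KO libraries and 4.02 in WT libraries, were lowest. Their ranges overlapped, and 33.8% and 29.2% of tested genes lay below their means.

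**Figure D1:**
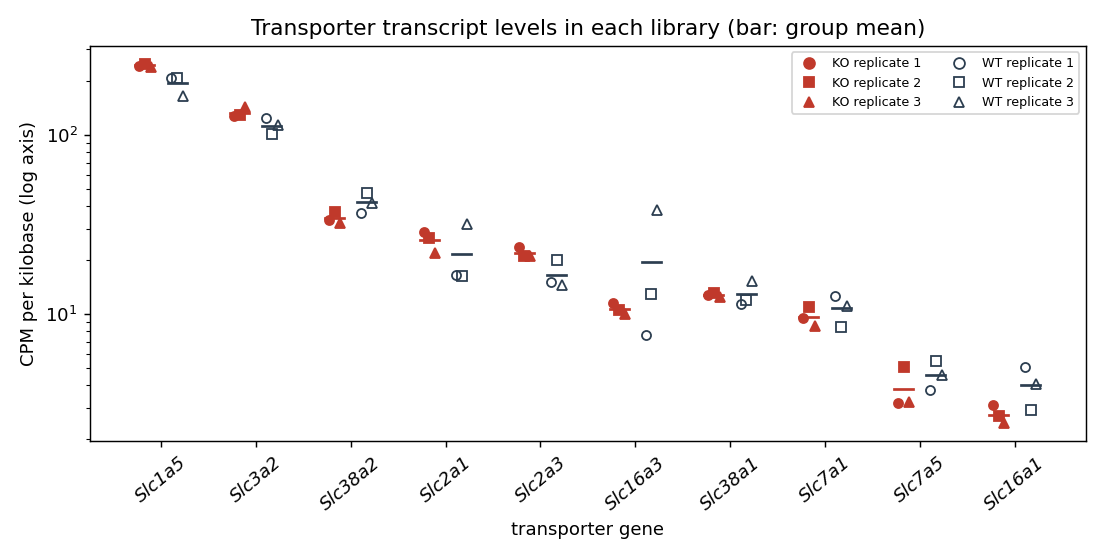
Level of each of the 10 carrier genes in CPM per kilobase of transcript (log axis), with KO libraries (filled) left of WT libraries (open), marker shapes for replicates 1 to 3 and a bar at each group mean. For Slc16a3 the open triangle, WT replicate 3, stands far above the other libraries.

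None of the 10 carriers passed the test between KO and WT. edgeR's quasi-likelihood test called 0 of 10 at an adjusted p under 0.05, where 1.74% of all tested genes were called, 0.755% higher and 0.983% lower in KO. DESeq2 and limma-voom also called 0 of the 10, where they called 6.78% and 2.81% of all genes. At an unadjusted p under 0.05 edgeR had Slc1a5 and Slc2a3, 2 of the 10, where 15.9% of all genes lay under that value. Groups without overlap were seen for 3 of the 10, a share near the 22.0% of all genes. These 3 (Slc2a3, Slc3a2 and Slc1a5) were all higher in KO, where 10.4% of all genes were higher and 11.5% lower without overlap. The 10 log2 fold changes, 4 positive and 6 negative, had a median of -0.09, and that of all tested genes was -0.04. Scaling moved the calls over all genes: 96 higher and 125 lower in KO with TMM became 26 and 153 when libraries were scaled to the pan-T cell genes, and 137 and 57 with library totals. It also moved the median of all genes, to -0.33 with pan-T scaling and to 0.14 with library totals, where the 10 carriers had -0.39 and 0.10.

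**Figure D2:**
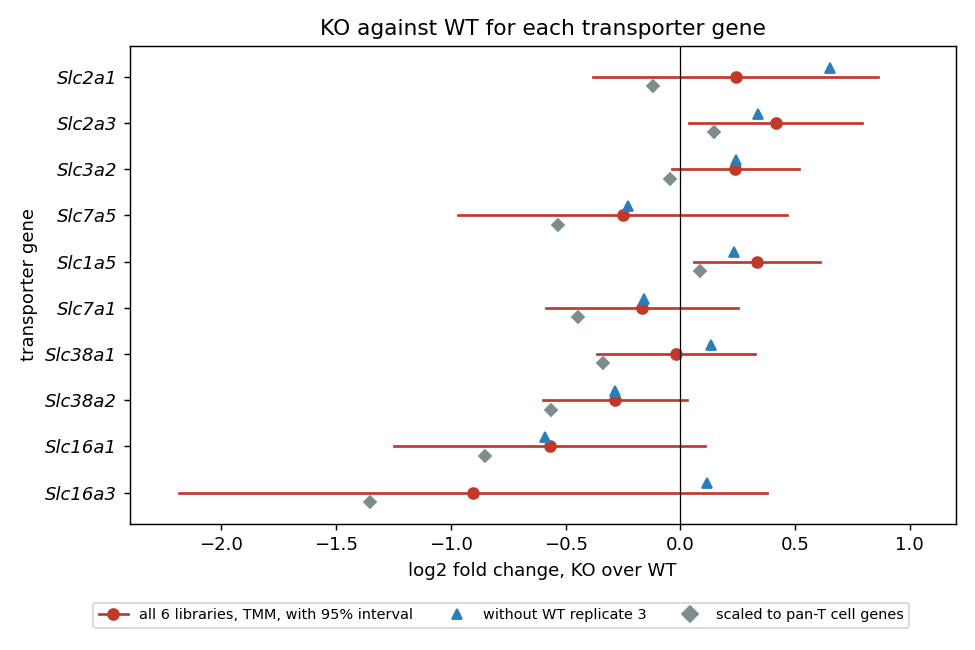
Log2 fold change of KO over WT for each carrier gene with its 95% interval from edgeR (red), beside the value without WT replicate 3 (blue triangle) and with libraries scaled to pan-T cell genes (grey diamond). Red intervals lie above 0 for Slc2a3 and Slc1a5 alone, and leaving out WT replicate 3 moves Slc2a1 to 0.65 and Slc16a3 to 0.12.

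Both glucose carriers had higher group means in KO, by less than the test could call. Slc2a1 (mm10 chromosome 4, 119108711 to 119137983, plus strand, here and below from GENCODE) stood at 74.2, 68.5 and 56.6 CPM in KO replicates 1 to 3, against 42.7, 41.7 and 81.4 CPM in WT replicates 1 to 3. Every KO library lay above WT replicates 1 and 2 and below WT replicate 3. edgeR gave KO over WT a log2 fold change of 0.24 (SE 0.27) with an adjusted p of 0.719, and the 95% interval ran from 0.769-fold to 1.82-fold. Without WT replicate 3 the same test gave 0.65, adjusted p 0.106. Slc2a3 (chromosome 6, 122727809 to 122801640, minus strand), which has a higher affinity for glucose than GLUT1, stood at 93.3, 83.2 and 83.4 CPM in KO, against 60.0, 79.4 and 57.5 CPM in WT. All KO libraries were above all WT libraries, with WT replicate 2 close below. Its log2 fold change of 0.42 (SE 0.16) had an edgeR adjusted p of 0.268 and a 95% interval of 1.03-fold to 1.73-fold. Antisense genes overlap Slc2a1 and a pseudogene overlaps Slc2a3 in the annotation, and the strand setting of the counts is not known, so reads of such neighbours may be included.

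The heavy and the light chain of the leucine carrier had fold changes of opposite sign, and neither passed. Slc3a2 (chromosome 19, 8706882 to 8723369, minus strand), which also serves other light chains, stood at 326, 332 and 369 CPM in KO, against 318, 259 and 291 CPM in WT. The groups did not overlap, though KO replicate 1 and WT replicate 1 were nearly level. For Slc3a2 edgeR gave a log2 fold change of 0.24 (SE 0.12), adjusted p 0.379, and an interval of 0.976-fold to 1.43-fold. Slc7a5 (chromosome 8, 121881150 to 121907694, minus strand, inside the plus-strand gene model Gm20388) was covered by 115, 221 and 218 reads in KO and by 99, 28 and 170 reads in WT. Scaled, it stood at 11.2, 17.7 and 11.4 CPM in KO, against 13.2, 19.2 and 16.1 CPM in WT. KO replicate 2 lay above WT replicates 1 and 3, so the groups overlapped. The edgeR log2 fold change was -0.25 (SE 0.31), adjusted p 0.752, and its interval, 0.511-fold to 1.38-fold, is wide in both directions.

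Slc1a5, the glutamine carrier and the most abundant of the 10 transcripts, had the smallest p in edgeR and DESeq2, while in limma-voom Slc2a3 had it. It lies on chromosome 7 (16781340 to 16798274, plus strand) and stood at 670.4, 685 and 660.2 CPM in KO, against 573, 573 and 453 CPM in WT. All KO libraries were above all WT libraries, and WT replicate 3 was lowest. In edgeR the log2 fold change was 0.34 (SE 0.12), adjusted p 0.221, with a 95% interval of 1.04-fold to 1.53-fold, and it was 0.23 without WT replicate 3. Set against the pan-T cell genes of the same library, Slc1a5 had 78.5, 85.4 and 71.6 reads per 1000 pan-T reads in KO, against 70.2, 69.6 and 82.2 in WT. On that scale WT replicate 3 lay among the KO libraries. With pan-T scaling the log2 fold change was 0.08 for Slc1a5, 0.15 for Slc2a3, -0.05 for Slc3a2 and -0.12 for Slc2a1, so the signs of Slc3a2 and Slc2a1 depend on the scaling. None of the 10 carriers had groups that did not overlap on this scale.

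For the other amino acid carriers the difference between groups was within the error of the test. Slc38a2, a sodium-coupled carrier known to be induced when amino acids are scarce, lies on chromosome 15 (96687392 to 96699730, minus strand) and stood at 155, 172 and 149.6 CPM in KO, against 170.0, 219.6 and 192 CPM in WT. KO replicate 2 was level with WT replicate 1, and the other KO libraries were below all WT libraries. edgeR put its log2 fold change at -0.29 (SE 0.14), adjusted p 0.359, interval 0.661-fold to 1.02-fold. Slc38a1, also on chromosome 15 (96571418 to 96642913, minus strand), stood at 99.2, 102 and 96.6 CPM in KO, against 88.4, 93.1 and 119 CPM in WT. WT replicate 3 was above and the other WT libraries below all KO libraries. For Slc38a1 the log2 fold change was -0.02 (SE 0.15), with an edgeR adjusted p of 0.970 and an interval of 0.778-fold to 1.25-fold. Slc7a1 (chromosome 5, 148327410 to 148399904, minus strand) stood at 68.6, 78.3 and 61.5 CPM in KO, against 91.1, 60.9 and 79.7 CPM in WT. The groups overlapped, and the lowest value was that of WT replicate 2, from 89 reads. edgeR put it at -0.17 on the log2 scale (SE 0.18), adjusted p 0.711, interval 0.667-fold to 1.19-fold, and with library totals the signs of Slc38a1 and Slc7a1 turned, to 0.17 and 0.02.

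The lactate carriers had the lowest fold changes of the 10, and both varied more among WT than among KO libraries. Slc16a1 (chromosome 3, 104638668 to 104658462, plus strand) was covered by 141, 149 and 209 reads in KO and by 168, 19 and 190 reads in WT. Its levels were 13.7, 11.9 and 10.9 CPM for KO replicates 1 to 3, against 22.5, 13.0 and 18.0 CPM for WT replicates 1 to 3. The shallow WT replicate 2 lay among the KO libraries, and the other WT libraries were above them. edgeR gave -0.57 on the log2 scale (SE 0.30), adjusted p 0.400, interval 0.421-fold to 1.08-fold. Leaving out 1 library gave log2 fold changes from -0.71 (without WT replicate 2) to -0.37 (without WT replicate 1). WT replicate 1 has the largest share of lung epithelial reads. Over all 19 alternatives the range was -0.85, from pan-T scaling, to -0.30, from a fit that includes that share. The part of lung epithelial reads in the Slc16a1 level was not tested. Slc16a3 (chromosome 11, 120948480 to 120960868, plus strand) stood at 28.4, 26.2 and 24.9 CPM in KO, against 18.9, 32.2 and 94.7 CPM in WT. The KO libraries were nearly level, between WT replicates 1 and 2, while WT replicate 3 was far above all others. By edgeR this was -0.90 on the log2 scale (SE 0.54), adjusted p 0.486, interval 0.220-fold to 1.30-fold. Without WT replicate 3 it was 0.12 (edgeR adjusted p 0.867), so its sign rests on that library.

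In CPM, WT replicate 3 held the highest value of Slc16a3, Slc2a1 and Slc38a1, 3 of the 10, where 21.9% of all tested genes were highest in that library. For Slc2a1 and Slc38a1 the gap to the next library was small beside that of Slc16a3. Slc2a1 had 81.4 CPM there against 74.2 in KO replicate 1, and Slc38a1 had 119 against 102 in KO replicate 2. Like Slc16a3, a pair of related carriers, picked after their values were seen, stood far higher in WT replicate 3 than elsewhere. Slc7a2, an arginine carrier known from macrophages, had 20.5 to 23.9 CPM among KO libraries, against 8.29, 5.47 and 107 CPM for WT replicates 1 to 3. Slc2a6, a GLUT family member known from macrophages, had 7.60 to 16.6 CPM among KO libraries, against 10.8, 15.1 and 79.5 CPM for WT. All 8 macrophage and monocyte markers in the table had reads in WT replicate 3 and in every KO library, while Marco had 0 reads in WT replicates 1 and 2. Chil3 and Lyz2 led in WT replicate 3, with 39952 and 39610 reads. Among KO libraries they had 15181 to 32539 and 8382 to 16027 reads. All 9 erythroid markers had reads in every library, led in WT replicate 3 by globin genes. Of 5 neutrophil markers, together 0.000856% to 0.00166% of KO reads and 0.00192% to 0.0287% of WT reads with the most in WT replicate 3, Mpo and Elane had 0 reads in every library. B cell markers took 0.00150% to 0.00276% of KO reads, against 0.00172%, 0.00215% and 0.0293% for WT replicates 1 to 3, and markers of CD8 T and NK cells 0.00114% to 0.00279% of KO reads, against 0.00192%, 0.00181% and 0.0159% for WT. The part of such cells in the levels of Slc16a3 and Slc2a1 was not tested.

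Promoter sequence is shown for Slc2a1 and Slc16a3, which were highest in WT replicate 3, and for Slc16a1, the other lactate carrier, which was not. Slc38a1, also highest in that library, had no matched window. The windows run from 250 bases before to 50 after the annotated start, 5′ to 3′, as given by RefSeq on GRCm38.p6, at chr4:119108495-119108794 (Slc2a1), chr11:120948817-120949116 (Slc16a3) and chr3:104638414-104638713 (Slc16a1), all on the plus strand. Capitals mark ACGTG on either strand, the core of the site bound by HIF-1. Within the palindrome CACGTG, the E-box bound by Myc with Max, ACGTG is present on both strands.
Slc2a1: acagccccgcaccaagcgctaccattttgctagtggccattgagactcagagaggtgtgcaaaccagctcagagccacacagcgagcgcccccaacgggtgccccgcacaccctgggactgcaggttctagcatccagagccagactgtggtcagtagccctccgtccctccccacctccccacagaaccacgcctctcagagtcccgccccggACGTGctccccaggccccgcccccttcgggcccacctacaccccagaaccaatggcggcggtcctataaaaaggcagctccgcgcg
Slc16a3: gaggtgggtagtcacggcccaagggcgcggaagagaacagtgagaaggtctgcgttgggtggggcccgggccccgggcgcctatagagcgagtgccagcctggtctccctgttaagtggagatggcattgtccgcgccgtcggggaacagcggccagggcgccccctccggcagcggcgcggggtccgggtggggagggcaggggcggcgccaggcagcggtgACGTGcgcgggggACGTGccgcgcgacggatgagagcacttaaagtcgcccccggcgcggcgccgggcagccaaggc
Slc16a1: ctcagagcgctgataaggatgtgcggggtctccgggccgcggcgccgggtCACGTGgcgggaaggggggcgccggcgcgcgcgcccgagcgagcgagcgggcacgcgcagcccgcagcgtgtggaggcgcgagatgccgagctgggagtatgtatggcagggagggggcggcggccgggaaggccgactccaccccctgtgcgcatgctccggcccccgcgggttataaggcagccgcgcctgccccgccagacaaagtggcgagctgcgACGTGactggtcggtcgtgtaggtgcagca
RefSeq windows were matched for 6 of the 10 genes, 7 windows in all, since Slc7a1 has a second start. ACGTG was in 4 of the 7 (Slc2a1, Slc16a3, Slc16a1 and Slc3a2), against 19.6% of all 32851 windows of that length. CACGTG was in 1 of the 7, that of Slc16a1, against 7.15% of all. The 7 windows have a median of 65.3% G and C, against 52.7% in all windows. TTCNNNGAA, a core bound by STAT proteins, searched because TSLP is known to activate STAT5, was in 1 of the 7 (a start of Slc7a1), against 8.30% of all. TGATGNAA, a core of the element bound by ATF4, was in 0 of the 7, against 3.97% of all. GGGCGG, also searched, was in 6 of the 7, against 35.7% of all. All motifs were searched on both strands, and a match describes the letters of the window, not a bound site.

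Ratios of paired carriers within a library do not depend on how libraries are scaled. Per base of transcript, the light chain Slc7a5 had 0.0252, 0.0390 and 0.0226 times the reads of the heavy chain Slc3a2 in KO, against 0.0305, 0.0542 and 0.0405 times in WT. On the log2 scale this averaged -5.15 ± 0.42 over KO libraries and -4.62 ± 0.42 over WT libraries (SD, n = 3), with overlap. The glucose carriers were nearly balanced, Slc2a1 having 1.22, 1.27 and 1.05 times the reads of Slc2a3 in KO, against 1.09, 0.809 and 2.18 times in WT. Slc16a1 over Slc16a3 was 0.270, 0.255 and 0.246 in KO, against 0.667, 0.226 and 0.106 in WT. The WT libraries lay on both sides of the narrow KO band. Slc38a1 over Slc38a2 was 0.382, 0.353 and 0.386 in KO, against 0.311, 0.253 and 0.368 in WT, where WT replicate 3 lay between the KO libraries. Groups overlapped in all 4 pairs.

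**Figure D3:**
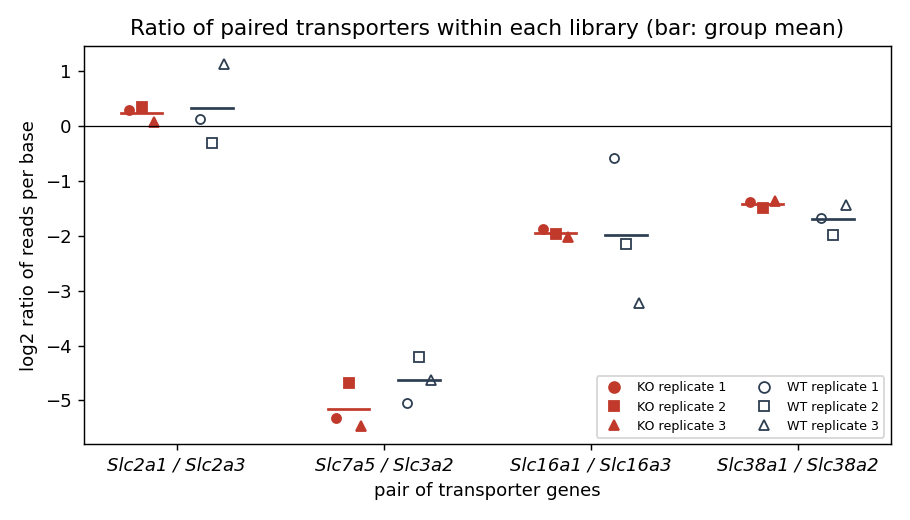
Log2 ratio of reads per base of transcript for 4 pairs of carriers, with KO libraries (filled) left of WT libraries (open), marker shapes for replicates and bars at group means. For Slc16a1 over Slc16a3 the KO libraries lie between -1.89 and -2.02, and the WT libraries spread from -0.58 to -3.23.

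Likeness of pattern, as Pearson's r of log2 CPM over the 6 libraries, is given as a description, since all genes share the libraries, their groups and the outlying WT replicate 3. The light chain did not follow the heavy chain, with r = -0.72 between Slc7a5 and Slc3a2, rank 11568 among 12719 genes. This leans on the shallow WT replicate 2, which had the lowest Slc3a2 (259 CPM) and the highest Slc7a5 (19.2 CPM, from 28 reads). Most like Slc3a2 were Rundc1, Mir546 and Lyrm9 (r = 0.987, 0.986 and 0.985). Most like Slc2a1 were Slc22a4, Parn and 2700081O15Rik (r = 0.995, 0.991 and 0.990), while Slc2a3 had r = 0.10 with it. Most like Slc16a1 were Myo5c, Ivd and Cat (r = 0.992, 0.989 and 0.989), while its chaperone Bsg had r = 0.73 and Slc16a3 r = 0.15.

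Among other transporters of these families, Slc16a6, a further monocarboxylate carrier, rose in KO. It stood at 39.9, 48.4 and 52.2 CPM in KO, against 22.5, 26.7 and 20.7 CPM in WT, and edgeR gave a log2 fold change of 1.03 (SE 0.20) with an adjusted p of 0.0466. This was the only call by any of edgeR, DESeq2 and limma-voom among 8 tested genes of the SLC16 and SLC5 families and their chaperones. Of all tested genes these tools called 1.74%, 6.78% and 2.81%. The 8 genes had a median log2 fold change of -0.15, where that of all tested genes was -0.04. Of the 8, 3 had an unadjusted p under 0.05 in edgeR, where 15.9% of all genes did. The others were, outside the naming rule, Emb, a chaperone related to basigin, at 433, 378 and 462 CPM in KO against 296, 382 and 289 CPM in WT, and Slc16a11, at 2.09 to 8.47 CPM among KO libraries and 94.4, 6.84 and 10.5 CPM in WT. The call was lost when any 1 library was left out (edgeR adjusted p 0.0553 to 0.262), and Amz2 and Arsg overlap the gene on the other strand. Bsg stood at 362, 333 and 347 CPM in KO, against 502, 341 and 331 CPM in WT, with overlap (log2 fold change -0.17, edgeR adjusted p 0.673). The other families had 0 calls by all 3 tools. Of 3 further SLC2 genes (median 0.49) 1 reached an unadjusted p below 0.05 with edgeR, Slc2a9, a urate carrier, at 25.4 ± 3.28 CPM over KO libraries and 14.4 ± 2.06 CPM over WT libraries, followed by Slc2a8 with a log2 fold change of 0.49 (SE 0.24). Of 9 SLC7 and SLC3 genes (median -0.26) 0 reached such a p. The smallest were those of Slc7a8, a light chain that also pairs with CD98, at 62.7 CPM in WT replicate 3 and 3.08 to 9.35 CPM elsewhere, and of Slc7a14, at 35.5 ± 0.63 CPM over KO libraries and 43.3 ± 3.43 CPM over WT libraries. Of 15 genes of the SLC1, SLC6, SLC36, SLC38 and SLC43 families (median -0.07) 2 had such a p. They were Slc36a1, a lysosomal amino acid carrier, at 26.9 ± 5.57 CPM over KO libraries and 12.1 ± 6.18 CPM over WT libraries, and Slc43a1, with 11, 3 and 44 reads in KO against 83, 2 and 61 reads in WT (SD, n = 3 throughout).

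Tbc1d1, a Rab GTPase-activating protein known from muscle to hold back glucose carriers, fell in KO. It stood at 60.5, 74.8 and 69.1 CPM in KO, against 133.9, 107 and 119 CPM in WT, with an edgeR log2 fold change of -0.82 (SE 0.15) and an adjusted p of 0.0407. Leaving out WT replicate 3 kept the call, and leaving out any 1 of the others ended it (edgeR adjusted p 0.0690 to 0.237). Its relative Tbc1d4, picked after its values were seen, stood at 30.4, 26.4 and 27.9 CPM in KO, against 58.2, 45.9 and 41.2 CPM in WT, and was called by DESeq2 but not by edgeR (adjusted p 0.0942) or limma-voom. In all, 8 genes that control glucose uptake had a median log2 fold change of -0.38, where all tested genes had -0.04. Of these 8, edgeR called 1, DESeq2 2 and limma-voom 1, where they called 1.74%, 6.78% and 2.81% of all genes. In edgeR 2 of the 8 had an unadjusted p under 0.05, where 15.9% of all genes did. Of 10 genes handling glucose, pyruvate and lactate (median -0.31) all 3 tools called 0, with 2 at such a p in edgeR. These were Mpc1, a subunit of the mitochondrial pyruvate carrier, at 54.3 ± 9.19 CPM over KO libraries and 79.6 ± 14.0 CPM over WT libraries (SD, n = 3), and Hk2, which phosphorylates glucose, at 6.56 to 9.87 CPM among KO libraries and 8.29, 15.7 and 40.3 CPM in WT. Of 10 enzymes that use the amino acids (median 0.38) edgeR called 0 with 1 at such a p, limma-voom called 0 and DESeq2 called that 1. It was the glutaminase Gls2, with 22, 27 and 40 reads in KO against 1, 0 and 1 reads in WT. Got1, an aspartate aminotransferase, had the next smallest p, at 159 ± 16.6 CPM over KO libraries and 107 ± 39.2 CPM over WT libraries.

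Myc and its partner Max, which act on promoters of several carriers, were lower in every KO library and missed edgeR's threshold. Of all tested genes, 11.5% were lower in KO without overlap. Myc stood at 59.0, 64.8 and 49.3 CPM in KO, against 128, 84.2 and 127 CPM in WT, and edgeR gave -0.99 on the log2 scale (SE 0.20) with an adjusted p of 0.0515. DESeq2 and limma-voom called it, with adjusted p of 0.000351 and 0.0213. Max stood at 98.8, 107 and 95.4 CPM in KO, against 151, 146 and 135 CPM in WT, with a log2 fold change of -0.52 (SE 0.12), an edgeR adjusted p of 0.0864 and a DESeq2 adjusted p of 0.0106. Hif1a, a subunit of HIF-1, stood at 443, 436 and 457 CPM in KO, against 545, 529 and 343 CPM in WT, with overlap (edgeR adjusted p 0.861). Of 8 factors of nutrient uptake (median -0.19) edgeR called 0 with 4 at an unadjusted p under 0.05, DESeq2 called 4 and limma-voom 1. In edgeR and in DESeq2 the 4 were Myc, Max and Nfe2l2, lower in KO, and Mlxip, higher in KO. Nfe2l2 and Mlxip, named outside the rule, had log2 fold changes of -0.86 and 0.61. Groups did not overlap for 5 of the 8, 2 higher and 3 lower in KO. Over all tested genes the median was -0.04, and 22.0% had groups without overlap. An unadjusted p under 0.05 in edgeR was found for 15.9% of all genes. edgeR, DESeq2 and limma-voom called 1.74%, 6.78% and 2.81% of them. Of 22 genes of mTORC1 and its amino acid sensing (median 0.03) all 3 tools called 0, with 2 at an unadjusted p under 0.05 in edgeR. They were Tsc1, an inhibitor of the complex, at 0.60 (SE 0.22) on the log2 scale, and Sesn2, a leucine sensor, at -0.83 (SE 0.31). Of 16 genes of the amino acid response to ATF4 (median 0.09) each tool called 1, Ddit4, which encodes the mTORC1 inhibitor REDD1. Ddit4 rose in KO, at 161, 111 and 133 CPM in KO against 68.6, 80.7 and 64.2 CPM in WT, by 0.93 on the log2 scale (SE 0.17, edgeR adjusted p 0.0451). Its call was kept without WT replicate 3 and lost without any 1 of the others (edgeR adjusted p 0.0516 to 0.227). With pan-T scaling edgeR called none of Slc16a6, Tbc1d1 and Ddit4, at log2 fold changes of 0.75, -1.10 and 0.65 (adjusted p 0.220, 0.0632 and 0.205), so that Tbc1d1 lay farther from 0 than with TMM and the others nearer.

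**Figure D4:**
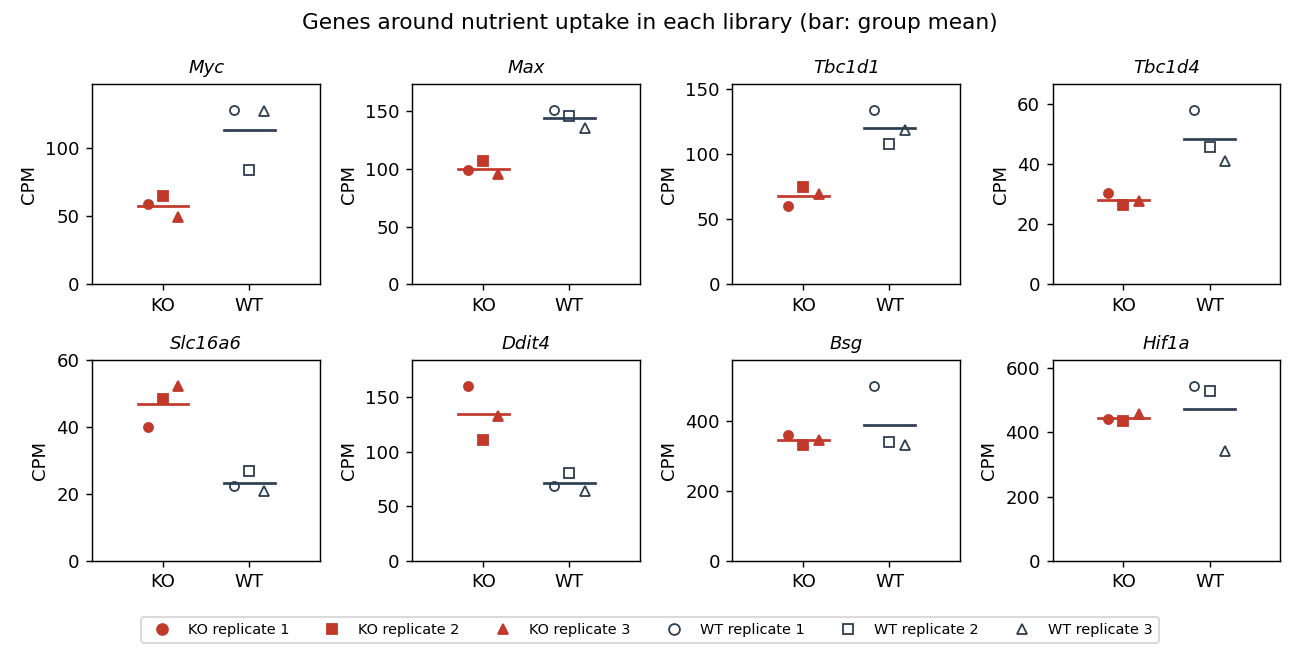
Levels in CPM of 8 genes around nutrient uptake, with KO libraries (filled) left of WT libraries (open), marker shapes for replicates and bars at group means. Myc, Max, Tbc1d1 and Tbc1d4 are lower and Slc16a6 and Ddit4 higher in every KO library, whereas Bsg and Hif1a overlap. Max, Tbc1d1, Slc16a6 and Ddit4 were named for a small p, and Tbc1d4 was picked after its values were seen. Their separation thus follows in part from the choice. Of all tested genes, 22.0% had groups without overlap.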

How the data were processed

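Raw read counts per RefSeq transcript, with transcript lengths, are what the authors deposited, judging by the values and per the file headers. Per the labels, total RNA was sequenced on an Illumina NovaSeq. The submitters' processing notes name bcl2fastq, TopHat2 2.2.1, Bowtie2 2.2.6 and mm10. The sources used here do not give the counting program, annotation release or strand setting. All sample columns were used.

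For each symbol the transcript row with most reads was kept. KO was compared with WT over all 6 libraries in R 4.3.3 with edgeR 4.0.16 (filterByExpr with minimum count 10 and total 15, TMM, robust quasi-likelihood F-test, Benjamini-Hochberg adjustment over 12720 genes, calls at 0.05), tested on simulated data. CPM were scaled by TMM, and log2 CPM used a prior count of 2. The SE is the absolute log2 fold change over the square root of F, and 95% intervals use the t distribution. Alternatives included DESeq2 1.42.0, limma 3.58.1, other scalings, covariates and left-out libraries. Nothing in the labels shows that replicates are separate animals, so the p-values may measure technical spread only. The members, lists, naming rule and alternatives were chosen with earlier results of these data known. Named were the 10 carriers, Crlf2, Foxp3, Bsg, Myc and Hif1a, and in each list up to 3 called genes of smallest p, or else the 2 of smallest p.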

Additional observations from a re-analysis of the deposited data

How the results depend on the processing

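Calls among the 10 carriers stayed at 0 under all 19 alternatives. Over all genes, 221 calls became 863 with DESeq2, 357 with limma-voom, 352 with limma-voom and sample weights, 8 with the lung epithelial share and 487 with the erythroid share as a covariate, and 4 (without KO replicate 1) to 518 (without WT replicate 3) when 1 library was left out. The 3 calls in the pathway lists became 0 with pan-T scaling, 9 with DESeq2, 1 without robust estimation, 0 with the lung and 5 with the erythroid covariate. They became 6 without WT replicate 3, and 0 when any 1 of the other libraries was left out. The replicate block gave 123 calls over all genes, 0 in the pathway lists and 0 among the carriers. Deviations of same-numbered KO and WT libraries correlated at r = 0.0837, -0.147 and -0.0444, and not every library correlated best with its own number. These values show no pairing by number. With 3 libraries per group they cannot exclude it, and the labels do not say whether a number is shared.

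Signs of log2 fold changes turned as follows, and the cause was not tested. With pan-T scaling Slc2a1 had -0.12 and Slc3a2 -0.046. With library totals Slc7a1 had 0.023, Slc38a1 0.17, Bsg 0.0013 and Hif1a 0.078. Slc38a1 had 0.0020 with upper-quartile factors and 0.0018 with no filter. With the erythroid covariate Slc38a1 had 0.14, Slc16a3 0.16, Foxp3 -0.086 and Slc7a8 0.65, and with the lung covariate Slc7a1 had 0.038, Bsg 0.095 and Hif1a 0.039. With 1 library left out, the range was -0.10 to 0.13 for Slc38a1, -1.31 to 0.12 for Slc16a3, -0.067 to 0.47 for Foxp3, -0.28 to 0.055 for Bsg, -0.27 to 0.044 for Hif1a and -2.56 to 0.52 for Slc7a8, with WT replicate 1 or 3 at either end. The 4 ratios moved by less than the spread between libraries. WT replicate 2, with 1439736 reads, limits Slc7a5 and Slc16a1 most, at 28 and 19 reads.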
